A study of Homo sapiens with 15 samples.

Results

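The genes described here are 10 epithelial genes, EPCAM, CLDN3, CLDN4, CLDN6, CLDN7, CLDN10, ESRP1, RAB25, CRB3 and KRT8, followed from human embryonic stem cells (ESCs) into self-renewing neuromesodermal progenitors (srNMPs) and the neural and muscle cells made from them. They were picked by name, with earlier results of these data known, and all 10 were found among the 17999 gene symbols of the deposited table. Messenger RNA had been sequenced from 15 cultures of the established human ESC lines H1 and HUES9, all of wild-type genotype, and 15 libraries in 9 groups were read here. One HUES9 library stood for undifferentiated ESCs. The srNMPs were taken at passage 8 and passage 25. Neuron progenitors came from 2 day 7 conditions, RABC and RASS, whose names the labels do not spell out, and neurons were dorsal or ventral. From srNMPs to neurons, all labelled with neural induction, each of the 6 groups was sequenced once in H1 and once in HUES9. Muscle cultures at day 40 and day 50 of skeletal muscle induction were 1 HUES9 library each. Replication within a group thus means a second cell line, the labels do not say whether the cultures were otherwise independent, and the p-values measure only the spread between these libraries.

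Epithelial cells are held to one another and sealed by junctions near their apical face. Claudins are membrane proteins that form the strands of tight junctions and set which ions pass between cells. EPCAM is an adhesion protein that binds and stabilises claudins, CRB3 is a Crumbs protein of the apical polarity complex, and RAB25 directs the recycling of apical membrane. KRT8 builds the intermediate filaments of simple epithelia, and ESRP1 is a splicing regulator of epithelial cells. Human ESCs grow as an epithelial sheet, and leaving that state in the embryo involves the loss of E-cadherin and of apical junctions. By these roles 7 of the 10 genes encode junction or polarity proteins, and KRT8, RAB25 and ESRP1 do not.

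The levels are FPKM, which count sequenced fragments per kilobase of transcript, scaled to the size of the library, and they permit levels of different genes to be set side by side. Library depth was recovered from the smallest values, which are whole multiples of the value of 1 fragment, and lay between 0.954 and 1.05 times the mean. For each of these genes the value of 1 fragment was chosen so that all values up to 300 fragments were whole numbers within 0.1. That all 99 such values were whole was thus fixed by the choice and is no check of it. Estimated fragments are given below where levels are low. They carry counting error and any error in the depth and in the value of 1 fragment, and they do not measure the spread between cultures. The summed level of 6 pluripotency markers was 1589 FPKM in the ESC library and 24.7 to 56.0 FPKM in srNMPs. Among them POU5F1 was at 691 FPKM in the ESC library and at most at 0.314 FPKM in the other 14. All 6 passed 1 FPKM in the ESC library, and 1 of the 6 still did in every other library but the day 40 muscle culture. All 7 skeletal muscle markers passed 1 FPKM in both muscle libraries, and all 6 neuron markers did so in the 4 neuron libraries. All 6 neuron markers also passed 1 FPKM in the 4 RABC and RASS libraries and in 2 of the 4 srNMP libraries. The libraries labelled RASS went against their cell line labels: across genes, the HUES9 minus H1 difference correlated at -0.533 to -0.167 with that of the other 5 groups, against 0.0691 to 0.377 among the other groups (10 pairs). They are called the libraries labelled H1 and HUES9 below, and results of the 10 genes that rest on them are also given without them.

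All 10 genes were highest in the ESC library. Their summed level was 1059 FPKM there, between 21.0 and 72.7 FPKM in the 4 srNMP libraries, and between 2.07 and 20.9 FPKM in the 10 libraries of later states. In the ESC library all 10 genes passed 1 FPKM, while 2 or 3 did so in each srNMP library and 1 to 4 in each later library. Of all 17999 genes, 10785 reached 1 FPKM in the ESC library, 10835 to 11354 in the srNMP libraries and 11045 to 12102 in the later libraries. How many of all genes were highest in the ESC library was not counted, and the 10 were picked with earlier results of these data known. The order of the levels in ESCs ran from CLDN6 (467 FPKM), KRT8 (295 FPKM) and EPCAM (134 FPKM) through CLDN7 (60.4 FPKM), ESRP1 (58.9 FPKM) and RAB25 (25.4 FPKM) to CLDN10, CLDN4, CRB3 and CLDN3 (5.95, 5.34, 5.14 and 2.78 FPKM). This order was not kept in any later state, since KRT8 led all 4 srNMP libraries and EPCAM led both ventral neuron libraries.

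**Figure D1:**
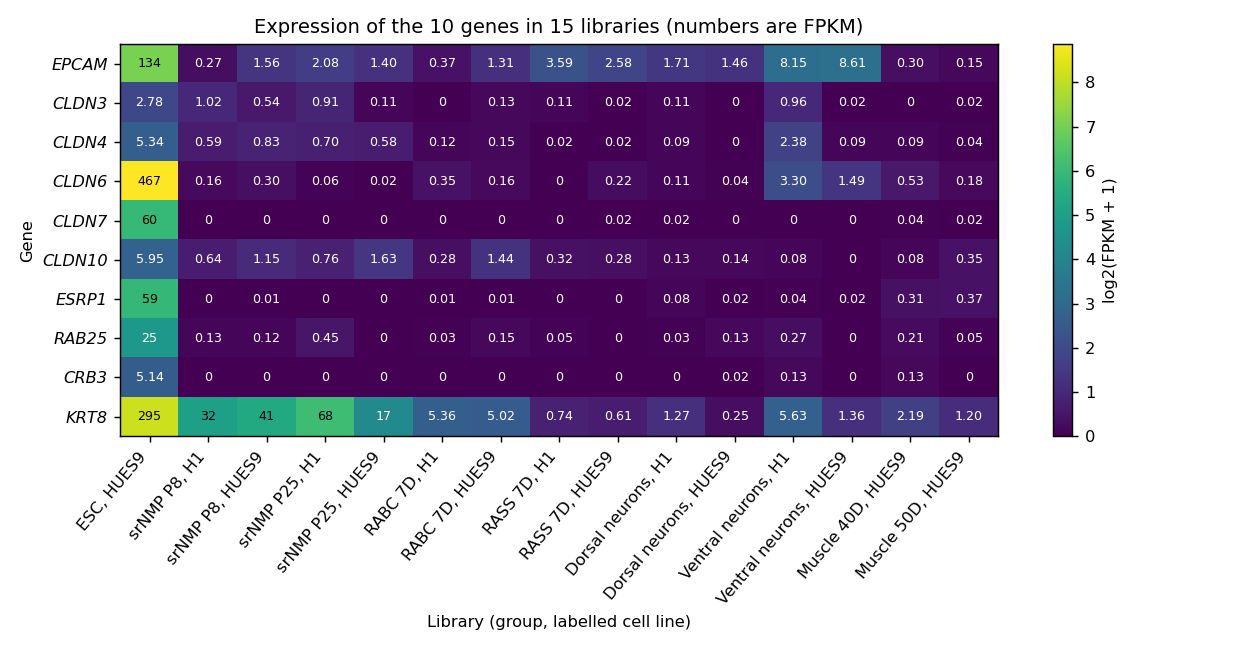
Level of each of the 10 genes (rows) in each of the 15 libraries (columns, by group and labelled cell line); color is log2(FPKM + 1) and the printed numbers are FPKM. The ESC column is the brightest for every gene, KRT8 stays at 17.3 to 67.7 FPKM in the srNMP libraries, and EPCAM reaches 8.15 and 8.61 FPKM in the ventral neurons.

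The first comparison asked what became of these genes between ESCs and srNMPs. All 10 fell. EPCAM, the adhesion protein, was at 134 FPKM in ESCs and at 0.269 and 1.56 FPKM in passage 8 srNMPs (H1, then HUES9) and 2.08 and 1.40 FPKM in passage 25 srNMPs. None of the srNMP values came near the ESC value, and the mean of the 4 srNMP libraries (1.33 ± 0.764 FPKM, SD, n = 4) was 101-fold lower. On the scale used for testing, log2(FPKM + 1), the change was -5.84 ± 0.43 (SE; limma adjusted p = 1.79e-04).

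CLDN6, a claudin of early embryonic epithelia, was the most abundant of the 10 genes in ESCs at 467 FPKM, or 21057 estimated fragments. The srNMP libraries held 0.163, 0.302, 0.0637 and 0.0212 FPKM (passage 8 H1 and HUES9, then passage 25 H1 and HUES9), which are 8, 15, 3 and 1 fragments. Every srNMP library thus held few fragments of the gene that was strongest in the ESC library (log2 change -8.75 ± 0.28, SE; limma adjusted p = 1.82e-06).

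CLDN7, the claudin that EPCAM is best known to bind, was at 60.4 FPKM in ESCs (3186 fragments) and was listed at 0 in all 4 srNMP libraries. CRB3, the Crumbs protein of mature epithelia, was at 5.14 FPKM in ESCs (222 fragments) and was likewise listed at 0 in all 4. A ratio to a level of 0 has no meaning and is left out; limma's adjusted p was 8.20e-08 for CLDN7 and 2.95e-06 for CRB3. ESRP1 gave 7650 fragments in the ESC library and 1 fragment in all 4 srNMP libraries together (log2 change -5.91 ± 0.09, SE; limma adjusted p = 8.20e-08). RAB25 gave 924 fragments in ESCs and 5, 5, 17 and 0 in the srNMP libraries in the same order (log2 change -4.56 ± 0.21, SE; limma adjusted p = 1.27e-05). For these 4 genes the srNMP values touch or approach the limit of detection. Their small SE and p-values rest on the spread of libraries at or near 0, since the ESC group is 1 library. They do not measure spread at the ESC level.

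KRT8, the filament protein, kept the most fragments. It was at 295 FPKM in ESCs, at 32.0 and 41.3 FPKM in passage 8 srNMPs and at 67.7 and 17.3 FPKM in passage 25 srNMPs, and each srNMP library still held between 1190 and 4641 fragments of it. The mean was 7.45-fold lower than in ESCs (log2 change -3.37 ± 0.63, SE; limma adjusted p = 0.0131). Compared with the other genes of the set, KRT8 made up most of what the srNMPs retained.

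The 3 remaining claudins were among the weakest of the set in ESCs. CLDN4, a sealing claudin, went from 5.34 FPKM to 0.590, 0.827, 0.702 and 0.580 FPKM (log2 change -2.06 ± 0.47, SE; limma adjusted p = 0.0279). CLDN10, which forms ion-selective pores, went from 5.95 FPKM to 0.636, 1.15, 0.761 and 1.63 FPKM (log2 change -1.64 ± 0.30, SE; limma adjusted p = 0.0116). CLDN3 went from 2.78 FPKM to 1.02, 0.539, 0.911 and 0.113 FPKM (log2 change -1.42 ± 0.30, SE; limma adjusted p = 0.0216). The 4 srNMP libraries lay below the ESC library for each of these claudins, by 7.92-fold, 5.70-fold and 4.30-fold in the mean.

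**Figure D2:**
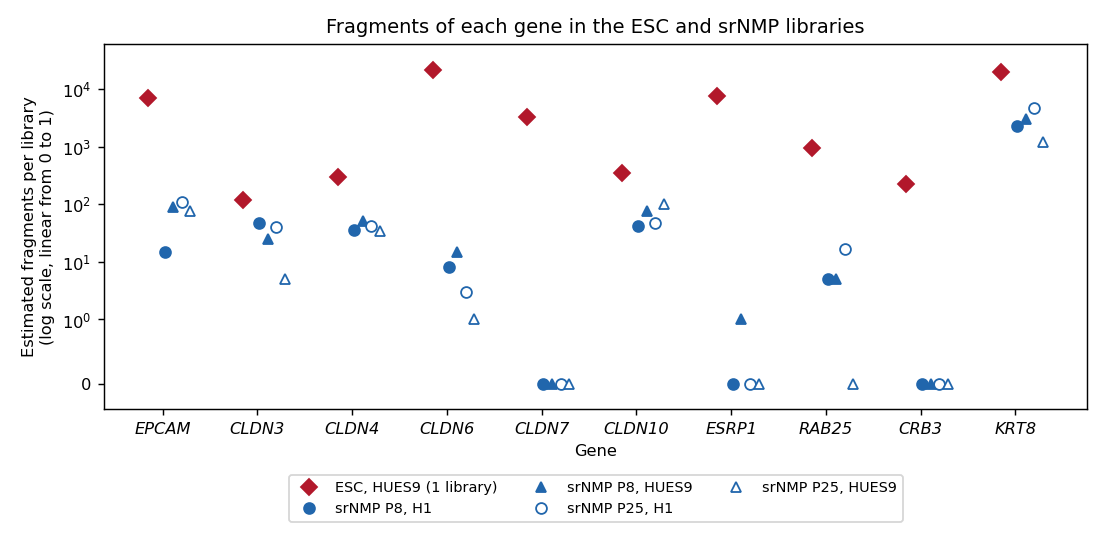
Estimated fragments of each gene (y axis, log scale, linear from 0 to 1) in the single ESC library (red diamonds) and the 4 srNMP libraries (blue circles for H1, triangles for HUES9; filled at passage 8, open at passage 25). CLDN7 and CRB3 drop from 3186 and 222 fragments to 0 in all 4 srNMP libraries, while KRT8 keeps 1190 to 4641.

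Across the 14129 genes tested, 7.93% were called lower and 8.73% higher in srNMPs at an adjusted p under 0.05. The median log2 change was -3.96 over the 10 genes and 0.07 over all genes tested. Because the 10 were chosen with earlier results of these data known, this difference is a description and no test of the set. Of the 10 genes, 4 (CLDN7, ESRP1, RAB25 and CRB3) reached the level required for testing, 1 FPKM in any library, only through the ESC library, so that they could differ in no other direction, and the other 6 reached it elsewhere too. The ESC group is 1 HUES9 library, so the SE of this comparison comes from the other groups, and how ESC cultures vary was not measured. For any gene that reached 1 FPKM only in the ESC library, in the set or outside it, that SE is the spread of values near the floor. With only the ESC and srNMP libraries in the fit, the calls of CLDN3, CLDN4, CLDN10 and KRT8 were lost; single libraries also decided CLDN3 (lost without HUES9 passage 25) and CLDN4 (lost without either passage 25 or either dorsal neuron library), CLDN3 was lost without the cell line term, and the highest adjusted p of these 4 genes in any alternative was 0.104. In bulk RNA, fewer cells of a type and less RNA per cell cannot be told apart.

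Junction genes outside the set split into those that fell with it and those that did not. Of 14 tested partners of the tight junction, 8 fell and 3 rose, and 3 of the 8 (TJP3, MARVELD2 and MARVELD3) reached 1 FPKM only in the ESC library. OCLN (occludin, a strand protein) went from 4.16 FPKM to between 0.262 and 1.03 FPKM (limma adjusted p = 0.0203), and TJP3 (a cytoplasmic scaffold) and MARVELD3 (a strand protein), named after their values were seen, went from 4.63 and 5.12 FPKM to at most 0.00855 and 0.00512 FPKM. F11R, which encodes junctional adhesion molecule A, went from 83 FPKM to between 3.01 and 6.28 FPKM (log2 change -4.09 ± 0.69, SE; limma adjusted p = 0.00863). Its relative JAM2 rose from 0.324 FPKM to between 6.04 and 17.1 FPKM (log2 change 3.27 ± 0.76, SE; limma adjusted p = 0.0284). The scaffold TJP1 (ZO-1) did not pass the test, with 28.8 FPKM in ESCs and 11.8 to 21.8 FPKM in srNMPs (limma adjusted p = 0.237).

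The Crumbs family members moved in opposite directions. CRB3 was listed at 0 in srNMPs, while CRB2, the Crumbs protein of neural and mesodermal epithelia, rose from 0.132 FPKM in ESCs to 13.4, 14, 14.8 and 21.4 FPKM (log2 change 3.92 ± 0.35, SE; limma adjusted p = 4.83e-04). In all, 3 of 15 tested polarity genes rose (CRB2, PARD6G and AMOT) and 3 fell (PATJ, PRKCI and LLGL2). Of the 12 tested genes of the adherens junction, 4 fell and CDH2 rose. CDH1, the E-cadherin of epithelia, went from 86.5 FPKM to at most 0.0628 FPKM in srNMPs (log2 change -6.59 ± 0.49, SE; limma adjusted p = 1.83e-04).

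Desmosomes, the junctions to which keratin filaments attach, had few calls. Of 8 tested desmosome genes JUP (plakoglobin) fell and PKP4 rose. DSP, the desmoplakin that anchors keratin, was at 42.7 FPKM in ESCs and 24.5 to 41.5 FPKM in srNMPs (limma adjusted p = 0.959). KRT18, the obligate filament partner of KRT8, was at 397 FPKM in ESCs and at 26.6, 65.0, 69.7 and 36.7 FPKM in srNMPs, and its log2 change of -3.07 ± 1.02 (SE) did not pass the test (limma adjusted p = 0.0850). KRT19 and KRT7 fell, KRT19 from 35.7 FPKM to between 0.187 and 4.57 FPKM. Of the 6 tested claudins outside the set only CLDN23 fell, which reached 1 FPKM in the ESC library alone, and CLDN12 was at 14.9 FPKM in ESCs and 15.6 to 20.0 FPKM in srNMPs.

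Regulators of epithelial genes fell as well. Of 9 tested, 7 were lower in srNMPs and none was higher, but 6 of these 7 (GRHL2, OVOL1, OVOL2, ESRP2, ELF3 and TFAP2C) reached 1 FPKM only in the ESC library and could be called in no other direction. GRHL2, a transcription factor that activates claudin and cadherin genes, went from 10.2 FPKM to at most 0.0191 FPKM (limma adjusted p = 3.03e-07), and ESRP2, the paralog of ESRP1, from 10.8 FPKM to at most 0.0513 FPKM (limma adjusted p = 3.03e-07). Among 12 membrane proteases, their inhibitors and trafficking genes 8 fell, of which 4 (SPINT1, ST14, PRSS8 and BSPRY) likewise reached 1 FPKM in the ESC library alone. SPINT1, an inhibitor of the protease matriptase, went from 51.5 FPKM to at most 0.107 FPKM (limma adjusted p = 9.34e-08).

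The repressors of epithelial genes did not move as one group. Of 7 tested, ZEB1 and ZEB2 rose and SNAI1 and TWIST2 fell. ZEB2 was at 0.108 FPKM in ESCs and at 15.2, 12.7, 11.4 and 17.9 FPKM in srNMPs (log2 change 3.91 ± 0.37, SE; limma adjusted p = 6.16e-04), and ZEB1 went from 0.229 FPKM to between 5.25 and 14.5 FPKM (limma adjusted p = 0.00739). ZEB proteins are known to bind the E-box CACCTG in epithelial promoters, so the upstream sequences of the genes that fell were searched for it.

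The E-box CACCTG was sought on both strands (CACCTG or CAGGTG) in the 250 bases before each start listed by RefSeq (GRCh38.p14). Entries for 8 of the 10 genes were used, with 10 starts between them, and none was used for EPCAM and ESRP1. CRB3 held 5 E-boxes, CLDN7 held 4 before its downstream start and 0 before its upstream start, RAB25 held 1, and CLDN3, CLDN4, CLDN6, CLDN10 and KRT8 held none in these windows. Over all 35116 windows of this length 17.5% held at least 1, and 43 windows (0.122%) held 4 or more. The sequences below show matches in RAB25, CRB3 and CLDN7, and the window of KRT8, which also fell, as 1 without a match. Capitals mark the E-box, and each runs 5′ to 3′ on the strand of the gene. The RAB25 window is chr1:156060910-156061159 (+), the CRB3 pair chr19:6464043-6464068 (+), the CLDN7 pair chr17:7262482-7262498 (-) and the KRT8 window chr12:52926470-52926719 (-). The CRB3 and CLDN7 windows overlap annotated untranslated regions, so a pair of neighbouring E-boxes is given for each.
RAB25: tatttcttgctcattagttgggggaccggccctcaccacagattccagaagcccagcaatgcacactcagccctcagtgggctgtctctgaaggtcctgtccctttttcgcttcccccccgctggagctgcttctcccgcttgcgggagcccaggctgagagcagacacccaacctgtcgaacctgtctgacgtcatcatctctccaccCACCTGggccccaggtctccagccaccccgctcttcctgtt
CRB3: CAGGTGtaaggtccccctcaCACCTG
CLDN7: CAGGTGcgcccCACCTG
KRT8: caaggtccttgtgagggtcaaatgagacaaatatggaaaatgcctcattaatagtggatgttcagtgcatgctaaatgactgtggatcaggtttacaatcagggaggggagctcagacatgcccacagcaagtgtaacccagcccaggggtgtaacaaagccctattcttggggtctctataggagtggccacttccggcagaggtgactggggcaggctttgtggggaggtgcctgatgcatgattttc
A match is a description of these letters. Binding was not measured. Genes with and without a match in these windows fell, and a part of ZEB proteins in these falls was not tested. The CLDN6 window overlaps an annotated untranslated region over all 250 bases, as does the window of CLDN4, and 1 CLDN10 window overlaps over 151 bases.

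**Figure D3:**
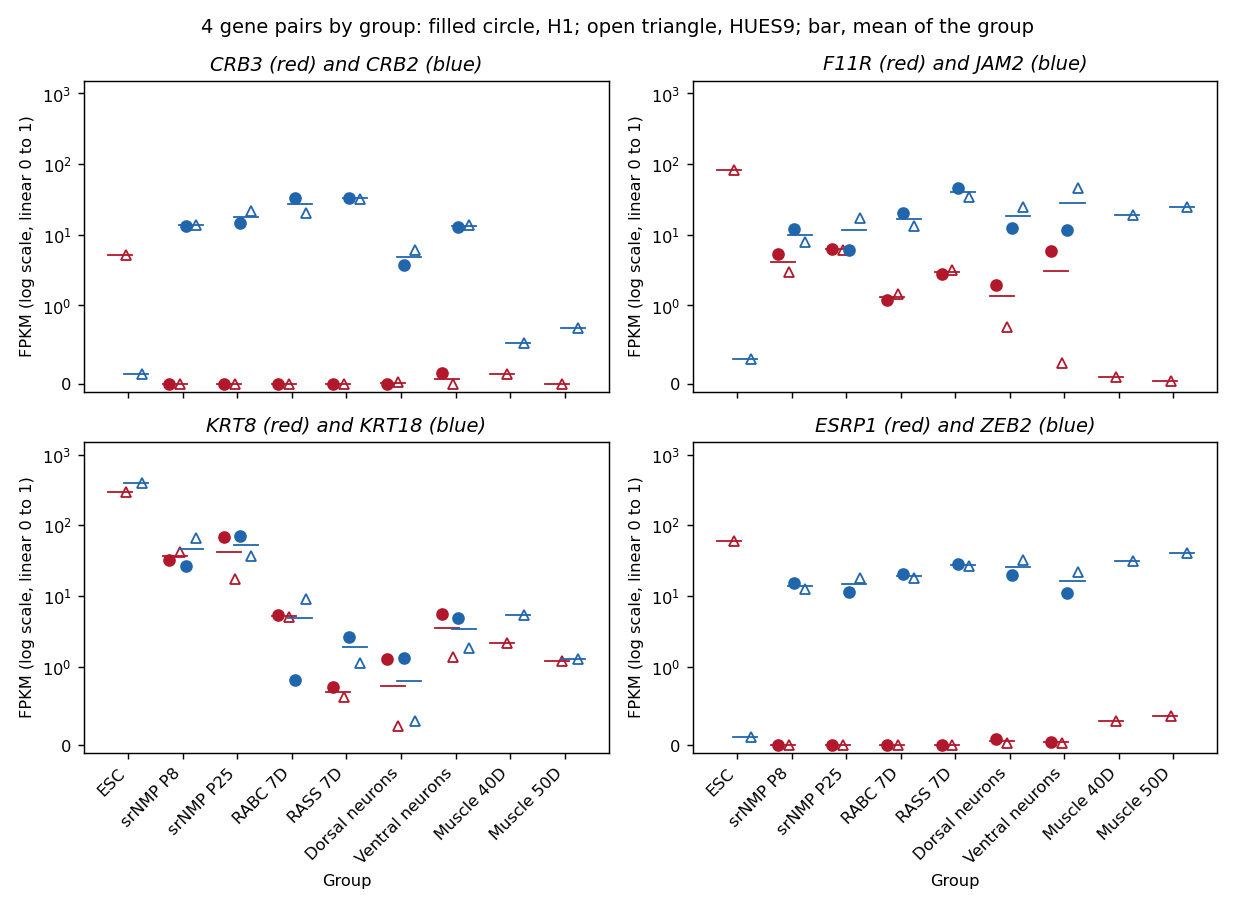
FPKM (log scale, linear from 0 to 1) of 4 gene pairs in each library by group: filled circles are H1, open triangles HUES9, and bars the mean of a group. CRB3, F11R and ESRP1 (red) drop after ESCs while CRB2, JAM2 and ZEB2 (blue) rise, and KRT8 and KRT18 are both lower after the srNMPs.

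Passage did not move any of the genes past the test. Between passage 8 and passage 25 limma called 0 of the 10 genes and 0% of the 14129 genes tested, and at an unadjusted p under 0.05 there were 0 of the 10 and 255 of all genes. KRT8 was at 32.0 FPKM (H1) and 41.3 FPKM (HUES9) at passage 8 and at 67.7 FPKM (H1) and 17.3 FPKM (HUES9) at passage 25, so the 2 lines went opposite ways. EPCAM in H1 was at 0.269 FPKM at passage 8 and 2.08 FPKM at passage 25, and in HUES9 at 1.56 and 1.40 FPKM. With 1 library per line and passage, the change within a line has no replicate.

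The next comparison asked what the first step of neural induction, read in the RABC and RASS libraries together, did to what was left of the set. KRT8 fell, and no other gene of the set was called. It was at 32.0, 41.3, 67.7 and 17.3 FPKM in srNMPs, at 5.36 and 5.02 FPKM in the RABC libraries and at 0.742 and 0.613 FPKM in the libraries labelled H1 and HUES9 of RASS. The groups do not overlap, though how many of all genes separate in this way was not counted. The log2 change was -3.50 ± 0.39 (SE, limma adjusted p = 0.0122). KRT18 fell by 3.77 ± 0.62 (SE, log2 scale; limma adjusted p = 0.0319), a call that held in 5 of 15 fits that left out 1 library and was lost without both RASS libraries (adjusted p = 0.163), and in RABC its H1 value of 0.83 FPKM lay far below its HUES9 value of 9.03 FPKM.

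The background of calls was small here, at 1.73% of tested genes higher and 1.69% lower, which is 245 genes higher and 239 lower. With libraries scaled to equal totals, a scaling that moves the median of all genes by 0.12, 272 of 440 calls were higher. Without both RASS libraries the KRT8 change was -2.56 ± 0.48 (SE) and its call was lost (limma adjusted p = 0.122), as it was without the H1 RABC library and with HUES9 libraries alone, so that 0 of the 10 genes were then called.

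The weak claudins showed values in the same direction as KRT8 without passing the test. CLDN4 was at 0.580 to 0.827 FPKM in srNMPs and 0.0167 to 0.149 FPKM in RABC and RASS, where the libraries hold 1 to 9 fragments (limma adjusted p = 0.232). CLDN3 was at 0.113 to 1.02 FPKM and then at 0 to 0.132 FPKM (limma adjusted p = 0.12). CLDN4 did not overlap between the 2 states, which was not counted over all genes and is no sign of a fall by itself. CLDN3 overlapped through the HUES9 passage 25 library. CLDN10 was at 1.44 FPKM in the HUES9 RABC library and between 0.282 and 0.317 FPKM in the other 3 (limma adjusted p = 0.230). CLDN7 and CRB3 stayed at or near 0, with 1 fragment of CLDN7 in 1 of the 4 libraries and none of CRB3.

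Other genes of the lists moved rarely at this step. AMOT, an adaptor of polarity complexes, was called higher through RASS, at 101 and 87.8 FPKM there against 7.56 and 13 FPKM in RABC and 5.47 to 11.3 FPKM in srNMPs, and without RASS its log2 change was 0.19 ± 0.28 (SE; limma adjusted p = 0.801). PRKCI, the polarity kinase, and SNAI2, a repressor, were called lower (limma adjusted p = 0.0432 and 0.0475), and neither call held without RASS (adjusted p = 0.217 and 0.216). Leaving out 1 library at a time kept the call of AMOT in 7, of PRKCI in 4 and of SNAI2 in 5 of 15 fits. By limma 0 of 14 tight junction partners, 0 of 12 adherens junction genes and 0 of 8 desmosome genes were called. At an unadjusted p under 0.05 there were 5, 5 and 4 of them, and 3379 of all 14129 genes tested. DSP varied among the progenitors, at 0.211 and 20.9 FPKM in RABC (H1, HUES9) and 8.28 and 0.184 FPKM in the RASS libraries labelled H1 and HUES9 (limma adjusted p = 0.119).

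RASS against RABC gave no call within the set. limma called 0.318% of all genes higher and 0.198% lower in RASS, and 0 of the 10 genes. At an unadjusted p under 0.05 there were 1206 of all 14129 genes tested, and 2 of the 10. The 2 were EPCAM, at 0.365 and 1.31 FPKM in RABC and 3.59 and 2.58 FPKM in RASS (log2 difference 1.19 ± 0.37, SE; limma adjusted p = 0.366), and KRT8, at 5.36 and 5.02 FPKM against 0.742 and 0.613 FPKM (log2 difference -1.88 ± 0.55, SE; limma adjusted p = 0.316). In these values EPCAM was higher and KRT8 lower in RASS. How many of all genes separate 2 libraries from 2 in the same way was not counted. CLDN1, a claudin outside the set and a core strand protein of skin, was called lower in RASS, at 10.8 and 8.88 FPKM in RABC and 0.296 and 0.207 FPKM in RASS (limma adjusted p = 0.00979), and AMOT was called higher (log2 difference 3.12 ± 0.42, SE; limma adjusted p = 0.0374), a call kept in 4 of 15 fits that left out 1 library. The CLDN1 call was lost when either RABC library was left out (adjusted p up to 0.109).

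EPCAM and CLDN6 were higher in neurons than in the RABC and RASS libraries. EPCAM was at 1.71 and 1.46 FPKM in dorsal neurons (H1, HUES9) and at 8.15 and 8.61 FPKM in ventral neurons, after 0.365, 1.31, 3.59 and 2.58 FPKM in the progenitors. The dorsal values lay within the progenitor range and the ventral values above it, and the log2 change over all neurons was 0.88 ± 0.27 (SE; limma adjusted p = 0.0372). CLDN6 was at 0.106 and 0.0420 FPKM in dorsal neurons and at 3.30 and 1.49 FPKM in ventral neurons, after 0.352, 0.164, 0 and 0.218 FPKM. It too exceeded the earlier range in the ventral libraries alone (log2 change 0.67 ± 0.17, SE; limma adjusted p = 0.0211).

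Among all genes this comparison called 21.3% higher and 16.5% lower, so a count of 2 of 10 genes higher is near the background share. After quantile normalization 2566 of 5542 calls were higher, against 3014 of 5343. Each of these calls held in 15 of 25 alternatives. The EPCAM call was lost without the H1 RABC library, without the RASS library labelled HUES9 or without any 1 of the 4 neuron libraries, and the CLDN6 call without either RABC library, the RASS library labelled H1 or either dorsal neuron library. Without both RASS libraries EPCAM stayed called (log2 change 1.47 ± 0.32, SE; limma adjusted p = 0.0191) and CLDN6 did not (0.58 ± 0.20, SE; limma adjusted p = 0.0785).

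The other 8 genes of the set did not pass the test in neurons. KRT8 was at 1.27 and 0.245 FPKM in dorsal and 5.63 and 1.36 FPKM in ventral neurons, which overlapped the progenitors (limma adjusted p = 0.553). CLDN10 held 0 to 9 fragments in each neuron library, and its log2 change of -0.48 ± 0.18 (SE) did not pass (limma adjusted p = 0.0770). Desmosome genes were lower in neurons for 4 of 8 tested (PKP2, PKP4, DSG2 and DSC2), with DSG2, a desmosomal cadherin, going from 5.57 to 18.1 FPKM in the progenitors to 1.07 to 3.88 FPKM (limma adjusted p = 0.0102). CRB2 fell from 20.0 to 33.7 FPKM to between 3.73 and 14 FPKM (limma adjusted p = 0.00162), and CRB1 rose (limma adjusted p = 0.0377). The proteins encoded by SPINT2, a protease inhibitor, and MAL2, a transcytosis factor, are at home in epithelia; SPINT2 rose from 1.66 to 4.51 FPKM to between 8.61 and 34.3 FPKM (limma adjusted p = 0.00173) and MAL2 from 0.4 to 1.74 FPKM to between 2.0 and 6.18 FPKM (limma adjusted p = 0.00716). Without both RASS libraries the calls of DSG2 and CRB1 were lost (adjusted p = 0.0581 and 0.0781), and CRB2, SPINT2 and MAL2 stayed called.

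Ventral against dorsal neurons was then tested directly. CLDN6 was higher in ventral neurons, with 154 and 68 fragments (H1, HUES9) against 5 and 2 in dorsal neurons, and a log2 difference of 1.61 ± 0.24 (SE; limma adjusted p = 0.0252). EPCAM showed 431 and 444 fragments against 91 and 79, but its log2 difference of 1.86 ± 0.37 (SE) did not pass the test (limma adjusted p = 0.0598). Fitted without the cell line term EPCAM was called (adjusted p = 0.0419), and it was called with libraries scaled to equal totals (adjusted p = 0.0382) and with the lines of RASS exchanged (adjusted p = 0.0380), so that 2 of 10 genes were higher. The background was 1.47% higher and 0.573% lower, or 207 of 288 calls higher, against 176 of 311 after quantile normalization. The CLDN6 call was lost without either dorsal neuron library, either passage 25 srNMP library or either RABC library, and with only the neuron libraries in the fit (adjusted p up to 0.151).

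CLDN4 and CLDN3 were high in 1 ventral library rather than both. CLDN4 was at 2.38 FPKM (138 fragments) in H1 ventral neurons and at 0.0885 FPKM (5 fragments) in HUES9 ventral neurons, against 0.0856 and 0 FPKM in dorsal neurons (limma adjusted p = 0.352). CLDN3 was at 0.964 FPKM in the same H1 library and at most at 0.114 FPKM in the other 3 neuron libraries (limma adjusted p = 0.504). KRT8 was at 5.63 FPKM in that library and at 1.36 FPKM in its HUES9 counterpart (limma adjusted p = 0.324). In dorsal neurons it was at 1.27 FPKM (H1) and 0.245 FPKM (HUES9), so KRT8 was higher in ventral neurons in both lines. Of the lists outside the set, KLF5, an epithelial regulator named after its value was seen, was the 1 gene called, at 0.82 and 1.01 FPKM in ventral neurons and 0.181 and 0.114 FPKM in dorsal neurons.

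Markers of another epithelium moved with the ventral values. Of the 5 notochord and floor plate markers, FOXJ1 was at 18.4 and 34.5 FPKM in ventral neurons (H1, HUES9) and at 2.48 and 2.41 FPKM in dorsal neurons, and SHH was at 1.47 and 9.53 FPKM against 0.0495 and 0.0218 FPKM. The summed level of the 5 was 19.9 and 44.6 FPKM in ventral and 2.58 and 2.47 FPKM in dorsal neurons, 2 of the 5 passed 1 FPKM in each ventral library, and NOTO was listed at 0 in all 4. Of the 2 ventral libraries SHH was higher in HUES9 and CLDN6 in H1, and EPCAM was at a like level in both. The part of these cells in the result was not tested.

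**Figure D4:**
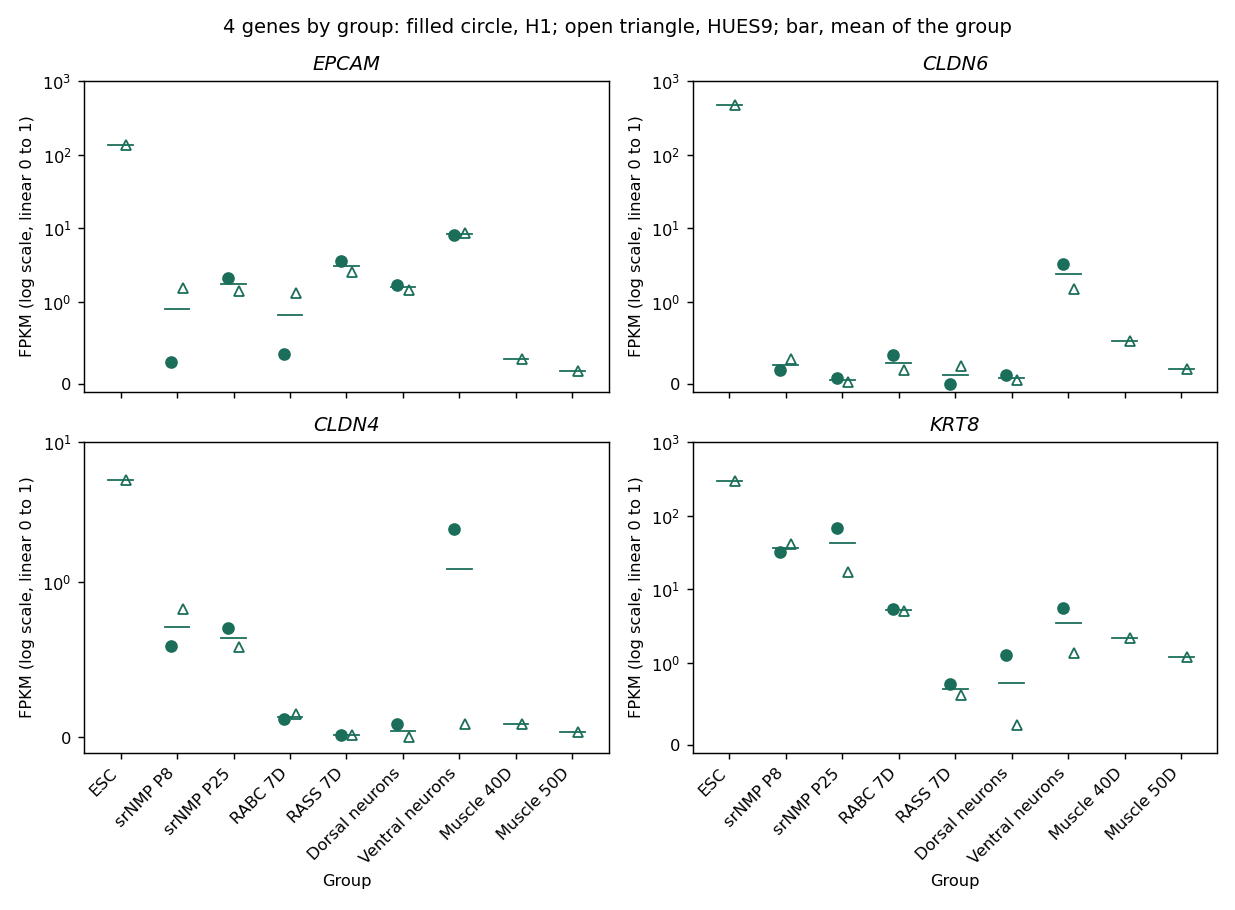
FPKM (log scale, linear from 0 to 1) of EPCAM, CLDN6, CLDN4 and KRT8 in each library by group: filled circles are H1, open triangles HUES9, and bars the mean of a group. EPCAM and CLDN6 are higher in ventral than in dorsal neurons in both lines (called for CLDN6), CLDN4 is at 2.38 FPKM in the H1 ventral library, and KRT8 is lower in RABC and RASS than in srNMPs.

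In muscle cultures KRT8 and CLDN10 were lower and ESRP1 was higher than in srNMPs. KRT8 was at 2.19 FPKM at day 40 and 1.20 FPKM at day 50, against 17.3 to 67.7 FPKM in srNMPs (log2 change -3.44 ± 0.50, SE, limma adjusted p = 0.00136). CLDN10 was at 0.0804 and 0.351 FPKM, against 0.636 to 1.63 FPKM (log2 change -0.88 ± 0.24, SE; limma adjusted p = 0.0182). ESRP1 was at 0.308 and 0.365 FPKM, or 42 and 48 fragments, against 0 to 1 fragment in each srNMP library (log2 change 0.42 ± 0.07, SE; limma adjusted p = 0.00310). These muscle values of ESRP1 exceed every other library outside ESCs, where at most 11 fragments were found, and remain far below the 7650 fragments of the ESC library.

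Both muscle libraries are HUES9 and each is alone in its group, so their own spread was not measured. Within HUES9 libraries alone the calls of CLDN10 and ESRP1 were lost (limma adjusted p = 0.0507 and 0.0570), and that of KRT8 held. The CLDN10 call was also lost without the HUES9 passage 8 library, the HUES9 passage 25 library or the day 40 library (adjusted p up to 0.102), and that of KRT8 with only the muscle and srNMP libraries in the fit (adjusted p = 0.0553). The background was 18.2% of genes higher and 31.6% lower, so 2 of 10 genes lower and 1 higher is no more than that. With equal totals, which moves the median of all genes by 0.21, 3004 of 6099 calls were higher, against 2566 of 7034. The median log2 change was -0.24 over the set and -0.22 over all genes.

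EPCAM was at 0.298 and 0.155 FPKM in muscle (16 and 8 fragments), the lower of which was its lowest value in the 15 libraries, and its log2 change from srNMPs of -0.94 ± 0.34 (SE) did not pass the test (limma adjusted p = 0.0555). CLDN7 gave 2 fragments at day 40 and 1 at day 50, CRB3 gave 6 and 0, and RAB25 gave 8 and 2. CLDN6 was at 0.527 and 0.175 FPKM (limma adjusted p = 0.306).

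Several epithelial genes outside the set were high in muscle cultures. CLDN1 rose from between 0.495 and 1.25 FPKM to 17.9 and 12.8 FPKM (log2 change 3.13 ± 0.26, SE; limma adjusted p = 1.11e-04), and CGNL1, a junctional actin adaptor, rose to 12.4 and 9.66 FPKM (limma adjusted p = 4.43e-04). CDH1 was called higher at 0.779 and 2.08 FPKM (limma adjusted p = 0.0232). All 7 repressors rose, led by PRRX1 at 103 and 78.7 FPKM against 0.00642 to 1.59 FPKM in srNMPs (limma adjusted p = 1.33e-06) and with SNAI2 at 54.6 and 40.9 FPKM (limma adjusted p = 8.31e-04). Desmosome genes fell for 6 of 8 tested, DSP to 0.864 and 0.527 FPKM (limma adjusted p = 0.0199).

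Some markers of stratified surface ectoderm were found in muscle cultures and barely elsewhere. TP63 was at 2.53 and 3.88 FPKM at day 40 and day 50 and KRT5 at 0.464 and 0.628 FPKM. The summed level of the 6 markers was 4.28 and 4.76 FPKM in muscle and 0 to 0.0145 FPKM in srNMPs, 2 and 1 of the 6 passed 1 FPKM, and KRT15 and KRT13 were listed at 0 in both muscle libraries. Fibroblast markers were higher still, with all 5 past 1 FPKM and COL1A1 at 8504 and 4700 FPKM. The 4 choroid plexus markers were also higher in muscle, where their summed level was 6.28 and 4.93 FPKM. In the other libraries it was at most 0.805 FPKM, and 1 of the 4 passed 1 FPKM in each muscle library. Whether any of these cell types was present, and its part in the ESRP1, CLDN1 and CDH1 values, was not tested.

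**Figure D5:**
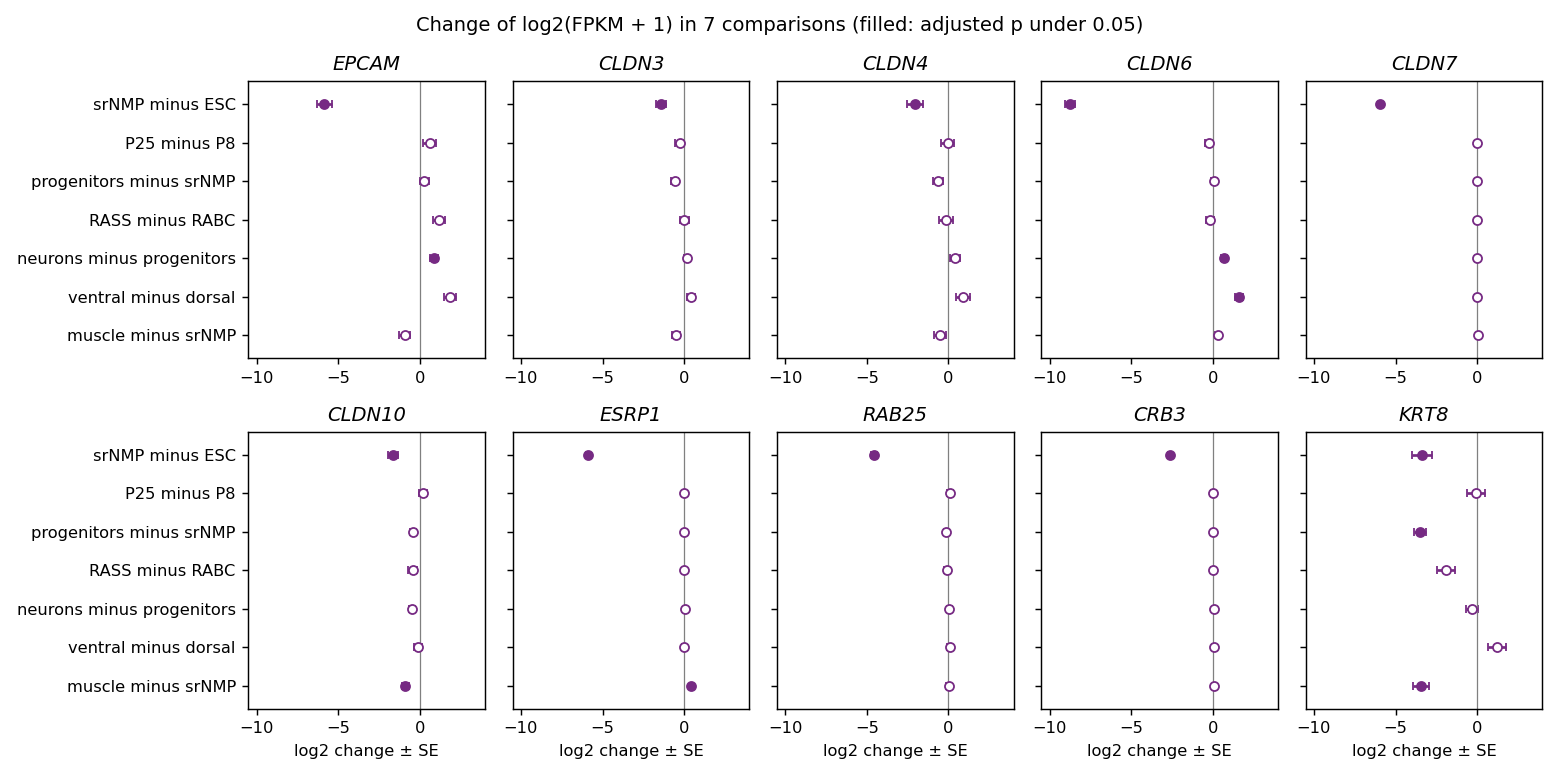
Change of log2(FPKM + 1) ± SE (x axis) of each gene (panels) in the 7 comparisons (rows, first group minus second); filled points have an adjusted p under 0.05. All 10 genes are filled in the srNMP minus ESC row, while in the other 6 rows only EPCAM, CLDN6, CLDN10, ESRP1 and KRT8 have filled points; for CLDN7 and CRB3 the srNMP value is listed at 0 and the size of the change depends on the added 1 FPKM.

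The genes of the set did not share 1 pattern once the ESC library was left out. Over all 15 libraries the Pearson r of log2(FPKM + 1) between CLDN7, ESRP1, RAB25 and CRB3 was 0.988 to 0.996, which rests on the shared ESC library. Over the 14 other libraries EPCAM went with CLDN6 (r = 0.621) and not with CLDN3 (r = 0.165) or KRT8 (r = -0.162). CLDN3 went with CLDN4 (r = 0.826) and with KRT8 (r = 0.753). These 14 libraries share 2 cell lines and differentiation states, and the values are given as descriptions without a p.

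Among 11262 genes that reached 5 FPKM in any library, the 5 whose pattern over the 15 libraries was most like the mean of the set were PLPP2 (r = 0.982), SCGB3A2 (0.978), RIPK4 (0.978), PTBP3 (0.976) and LPAR3 (0.976). KRT8 was followed most closely by its filament partner KRT18 (r = 0.957) and then by LARGE2 (0.945) and HES3 (0.944). CRB3 was followed by DMKN, SIX3, PRSS8, SCNN1A and ZSCAN10 (all 0.997), each at most at 0.137 FPKM outside ESCs. EPCAM was followed by CORO2A (0.973) and ARC (0.962), CLDN6 by NPFFR2 (0.993) and MATK (0.991), and CLDN10 by CYB5A (0.953) and POLR3G (0.934). Since 1 ESC library sets most of these coefficients, they carry no p.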

How the data were processed

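The authors deposited 1 table of FPKM; the submitters' processing notes name HISAT2, Cufflinks, HTSeq, Trimmomatic and build hg18, and versions, roles and gene lengths are not given in the sources used here. Per the labels' protocols libraries were made with a TruSeq Stranded mRNA kit. Samples were grouped by title, and 1 value column that matched no sample was not used. Relative depth came from 918 genes never above 0.1 FPKM, of whose 3665 values 95.1% were whole multiples within 0.05 fragments.

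Genes with at least 1 FPKM in any library (14129) were tested as log2(FPKM + 1) with limma 3.58.1 in R 4.3.3, with 1 mean per group, a cell line term (the replicate block, since lines pair the groups), a variance trend, 5 residual and 2.16 prior degrees of freedom, and Benjamini-Hochberg adjustment over all genes. Groups with 1 library are assumed to vary like the others. Adding 1 FPKM shrinks changes of weak genes. The test was tried on simulated data. Count models were not run. The line pairing was checked by the correlations given above, which were above 0 for all pairs of groups but those with RASS.

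Named are all 10 genes, the first gene of each list and up to 3 called genes per list and comparison with the largest change and at least 5 FPKM in 1 group; TJP1, TJP3, MARVELD3, CLDN12, KRT7, LLGL2, KLF5 and others named as members of a count were added after their values were seen. The genes, lists and rule were chosen with earlier results of these data known. Genes listed but not analysed here were CLDN8, CLDN14, CLDN17, CLDN18, CLDN24, CLDN25, KRT20 and SOX17. Promoter sequences are RefSeq's (GRCh38.p14), and untranslated regions were taken from GENCODE v29. Protein sequences were not used here.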

Additional observations from a re-analysis of the deposited data

Results flagged for a closer look

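In 27 sets of 4 libraries of a state (srNMPs, progenitors or neurons), 7 held 1 library set far apart from the other 3. For 4 continuous values of 1 population chance gives about 1 in 20, but these sets mix groups and cell lines and hold many zeros, so that rate is no reference for them. CLDN4 at 2.38 FPKM, CLDN3 at 0.964 FPKM and CRB3 at 0.134 FPKM stood apart in the same library, H1 ventral neurons. CLDN10 stood apart at 1.44 FPKM in the HUES9 RABC library. The 3 other cases are 1 fragment against 3 libraries at 0, which stand apart by construction: ESRP1 at 0.00699 FPKM in the HUES9 passage 8 srNMPs, and CLDN7 at 0.0186 FPKM in the RASS library labelled HUES9 and at 0.0182 FPKM in H1 dorsal neurons.

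KRT8 changed in opposite directions with passage in the 2 lines, by 1.06 on the log2(FPKM + 1) scale in H1 and by -1.21 in HUES9. The difference between lines was not tested, since each line has 1 library per passage.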

How the results depend on the processing

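The 10 genes kept their direction in every called comparison under the alternatives run. EPCAM, CLDN6, CLDN7, ESRP1, RAB25 and CRB3 were called lower in srNMPs than in ESCs in all 24. All 24 kept the 1 ESC library. CLDN7, ESRP1, RAB25 and CRB3 reached 1 FPKM only in that library and could be called in no other direction. Lower depth does not limit the ESC values, but CLDN7, CRB3, ESRP1 and RAB25 hold at most 48 fragments in any later library. AMOT reversed in 1 setting, from -1.30 to 0.26 between progenitors and neurons without both RASS libraries. With only the libraries compared in the fit, 514 genes differed between srNMPs and ESCs (2354 before) and 6 of the 10, 20 with passage (0 before), 168 between progenitors and srNMPs (484), 47 between RASS and RABC (73), 57 between ventral and dorsal neurons (288) and 0 of the 10, and 2307 between muscle and srNMPs (7034) and 1 of the 10; in neurons 1 of the 10 was called, EPCAM. With HUES9 alone there were 1390 genes for srNMPs and ESCs, 53 for progenitors and 0 of the 10, and 647 for neurons (5343) and 0 of the 10. Without the filter the progenitor and RASS counts were 191 and 48. Without both RASS libraries the progenitor count was 25, and 0 of the 10. With the lines of RASS exchanged, chosen after seeing the data, it was 875, and RASS against RABC 113. Without the replicate block, which pairs libraries by cell line, it was 772. Of the 10 genes, 2 were called in ventral neurons without the block, with equal totals or with lines exchanged, 1 in neurons with a pseudocount of 0.1, no filter, quantile normalization or no RASS libraries, and 5 in muscle after quantile normalization. The cause of these shifts was not tested.

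Leaving out 1 library at a time gave 1504 to 2705 genes and 8 to 10 of the 10 for srNMPs against ESCs, 0 to 5 and 0 for passage, 45 (without H1 RABC) to 2277 (without H1 passage 8) and 0 to 2 for progenitors, 8 (without H1 RABC) to 82 and 0 for RASS against RABC, 3290 to 5993 and 0 to 2 for neurons, 137 (without HUES9 dorsal) to 398 and 0 to 2 for ventral against dorsal neurons, and 5036 to 7494 and 2 to 4 for muscle.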

Other observations

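LSR and its relative ILDR2 encode proteins of the corners where 3 cells meet. LSR was at 68.3 FPKM in ESCs and at 4.02 to 25.9 FPKM in srNMPs (limma adjusted p = 0.153), and ILDR2 rose from 0.0561 FPKM to between 5.49 and 18 FPKM (log2 change 3.08 ± 0.52, SE; limma adjusted p = 0.00837). In neurons both were lower than in the RABC and RASS libraries, LSR at 0.170 to 0.585 FPKM (limma adjusted p = 0.0377) and ILDR2 at 0.801 to 3.93 FPKM (limma adjusted p = 0.0292), and without both RASS libraries the LSR call was lost (adjusted p = 0.109).

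CXADR, an adhesion protein of tight junctions, was at 14.6 to 35.7 FPKM in all 13 libraries outside muscle and at 0.401 and 0.990 FPKM in the muscle cultures (log2 change from srNMPs -3.73 ± 0.18, SE; limma adjusted p = 4.87e-06).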
